A study of Rattus norvegicus with 8 samples.

Results

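The perineuronal net matrix genes described here are 9 genes chosen by symbol: the lecticans Bcan, Ncan, Vcan and Acan, the link proteins Hapln1 and Hapln4, the tenascins Tnr and Tnc, and Reln, which encodes reelin. They are 9 of 15892 symbols listed for both hippocampus and hypothalamus. All 9 were listed in both tissues, but Acan, Ncan and Hapln4 averaged under 1 FPKM, so only 6 were compared between the tissues. The RNA was from dissected, frozen tissue of male rats of the outbred Sprague Dawley strain. They were 2 months old at the start and were given an omega-3 diet with docosahexaenoic acid (DHA), and drinking water with 15% fructose, over 6 weeks. Each tissue had 4 libraries, and all 8 libraries shared this diet, so no effect of fructose or DHA could be measured; the contrast was hypothalamus against hippocampus. Whether the libraries stem from different animals is not in the labels, and SD and SE here measure only the spread between libraries.

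Perineuronal nets are lattices of extracellular matrix that wrap the soma and proximal dendrites of certain neurons, above all fast-spiking parvalbumin interneurons and, in the hippocampus, pyramidal cells of field CA2. Long hyaluronan chains carry chondroitin sulfate proteoglycans of the lectican family, link proteins clamp each lectican to hyaluronan, and tenascin-R crosslinks the other ends of the lecticans. Nets form as critical periods of plasticity close, and enzymatic removal of their chondroitin sulfate reopens plasticity in the adult brain. Reelin is a secreted matrix glycoprotein of Cajal-Retzius cells and of some interneurons, and it acts through lipoprotein receptors rather than as part of the lattice. Bulk RNA cannot tell fewer cells of a type from less RNA per cell.

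Values are FPKM, fragments scaled to transcript length and to the fragments of the library, so levels of different genes may be set beside each other. Where a symbol had several loci, their FPKM were added. The tissues were deposited in separate tables, so tissue and table coincide, and neither the call rule below nor limma can tell a difference between tissues from a difference between tables. Differences are hypothalamus minus hippocampus on the scale of log2(FPKM + 1) after joint scaling of the libraries. A gene is called higher or lower when the difference is at least 1 and the libraries of the tissues do not overlap. Of 10554 genes compared, 13.3% were higher and 13.4% lower in hypothalamus by this rule, 26.7% in all, and 53.4% had libraries that did not overlap, whatever the size of the difference. Fitted with limma, with a difference of at least 1 and a Benjamini-Hochberg adjusted p under 0.05, 13.8% were higher and 13.6% lower, with the replicate number as a block and without it.

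Read numbers are unknown. Steps among the lowest values gave relative depth only, with 1 fragment worth 1.36 times more FPKM in hippocampus replicate 2 than in replicate 3. Replicate 1 of each tissue did not share the steps and stood apart in a way that touches the members. In hippocampus, 213 loci were listed at 0 in replicate 1 while the other 3 libraries exceeded 1 FPKM, and 206 of these belonged to symbols with several loci; in the other hippocampus libraries 0 to 4 loci were of this kind. The corresponding number was 129 for hypothalamus replicate 1. Hippocampus replicates 3 and 4 were high for choroid plexus markers (4 of 5 listed in both tables), at a summed 6483 and 4857 FPKM against 53.3 and 73.8 in replicates 1 and 2. Of 5 markers of hippocampal excitatory neurons all were lower in hypothalamus, and all 6 compared markers of hypothalamic neurons were higher there.

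Of the 6 members compared, Hapln1, Tnr and Reln were lower in hypothalamus, Tnc was higher, and Bcan and Vcan were neither. Fitted to the same values, limma called the same 4, which is not independent support. That is 1 of 6 higher beside 13.3% of all genes, and 3 of 6 lower beside 13.4%. The median difference of these 6 was -0.82, beside -0.04 over all genes compared. The plot of levels by library shows the 9 genes spread from brevican RNA, the most abundant, to neurocan and Hapln4 RNA, listed at or near 0.

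**Figure D1:**
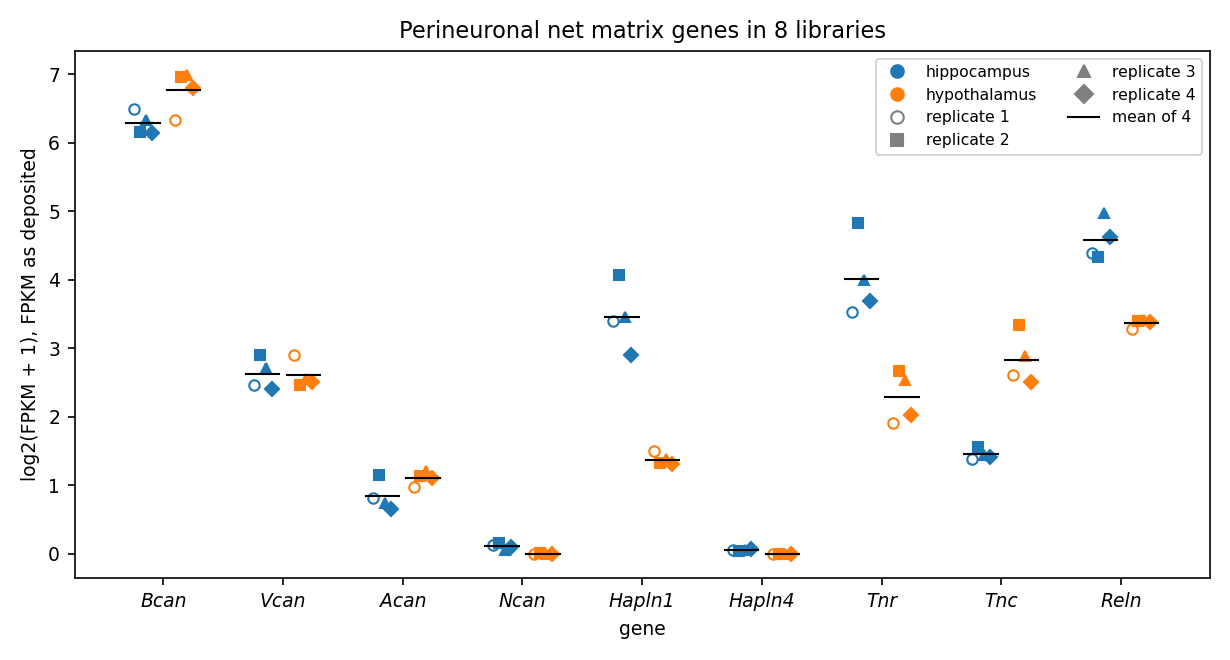
Levels of the 9 genes as log2(FPKM + 1), from FPKM as deposited, on the vertical axis, with a point for each of 4 hippocampus (blue) and 4 hypothalamus (orange) libraries, point shapes for replicates and a bar at the mean. Hapln1, Tnr and Reln sit lower in all 4 hypothalamus libraries, Tnc sits higher, and the points of Bcan, Vcan and Acan overlap between the tissues.

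Brevican, the small brain-specific lectican made by astrocytes and oligodendrocyte lineage cells, was the highest member in every library. Bcan stood at 89.4, 70.2, 79.9 and 69.8 FPKM in hippocampus replicates 1 to 4 and at 79.6, 123, 126 and 110.3 FPKM in the corresponding hypothalamus libraries. Hypothalamus replicate 1 fell among the hippocampus values, and the other 3 hypothalamus libraries lay above all of them. The difference in log2 level was 0.25 ± 0.19 (SE, n = 4 in each tissue), short of the limit of 1, and it was 0.50 without replicate 1 of both tissues. Versican, the large lectican of soft matrix and of nodes of Ranvier, stood at 4.51, 6.50, 5.57 and 4.28 FPKM in hippocampus and 6.44, 4.51, 4.89 and 4.70 FPKM in hypothalamus. Its values interleaved, with a difference in log2 level of -0.21 ± 0.15.

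Aggrecan, the lectican most tightly tied to nets in the adult brain, was low in both tissues. Acan stood at 0.757, 1.23, 0.681 and 0.570 FPKM in hippocampus and 0.967, 1.20, 1.32 and 1.16 FPKM in hypothalamus. Hippocampus replicate 2 lay within the hypothalamus range and the other 3 hippocampus libraries lay below it. With a scaled mean of 0.975 FPKM Acan lay just under the filter, and its log2 difference of 0.15 ± 0.13 is given as a value only. The sign of that difference was not stable: it was -0.09 with quantile normalisation and -0.02 without hippocampus replicates 3 and 4.

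Ncan, encoding the nervous-system lectican neurocan, was listed at 0.0936, 0.120, 0.0367 and 0.0690 FPKM in hippocampus. In hypothalamus it was listed at 0 in replicates 1, 3 and 4 and at 0.00850 FPKM in replicate 2. Hapln4, encoding the brain link protein that binds brevican at inhibitory synapses, was listed at 0.0409, 0.0284, 0.0418 and 0.0492 FPKM in hippocampus and at 0 in all 4 hypothalamus libraries. Each symbol had 2 loci in each table, of which 1 was at 0 in every library. The genes are neighbours in RefSeq's GRCr8 assembly. Npy, the abundant neuropeptide Y gene of both tissues, and Col1a2, a type I collagen gene, were also listed at 0 in all 8 libraries, as were 15.1% of the symbols in both tables. A listed 0 is therefore not read as missing expression, and no difference is given for Ncan or Hapln4.

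Within the lecticans that were listed, the proportions were alike in range in the tissues. Brevican made up 94.3%, 90.0%, 92.7% and 93.4% of the summed lectican FPKM in hippocampus and 91.5%, 95.6%, 95.3% and 95.0% in hypothalamus. Versican made up 4.75% to 8.32% in hippocampus and 3.50% to 7.41% in hypothalamus. Aggrecan made up 0.763% to 1.57% and 0.935% to 1.11%. These shares need no scaling between libraries, and all 3 ranges overlapped between the tissues. They leave neurocan at the low values listed, and would be too high if those values understate neurocan RNA.

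Hapln1, the link protein that joins aggrecan and versican to hyaluronan, had the largest difference among the members. It stood at 9.58, 15.8, 9.93 and 6.48 FPKM in hippocampus and at 1.82, 1.50, 1.60 and 1.47 FPKM in hypothalamus. Every hippocampus library was above every hypothalamus library, and the means of 10.4 ± 3.89 and 1.60 ± 0.159 FPKM (SD, n = 4) were 6.54-fold apart. The difference in log2 level was -2.26 ± 0.25 (SE), and -2.30 without replicate 1 of both tissues. The high value of hippocampus replicate 2 came from a locus listed at 0, 8.65, 0.635 and 0 FPKM in replicates 1 to 4, while the main locus stood at 9.58, 7.15, 9.30 and 6.48 FPKM. With the main locus alone the difference was -2.17, still a call.

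Tnr, encoding the tenascin-R that crosslinks lecticans in nets and is made by oligodendrocytes and some interneurons, was lower in hypothalamus when its loci were summed. It stood at 10.5, 27.4, 15.0 and 11.9 FPKM in hippocampus and 2.76, 5.39, 4.82 and 3.09 FPKM in hypothalamus. The libraries did not overlap and the difference in log2 level was -1.92 ± 0.35. This call rested on the sum over 2 hippocampus loci, whereas hypothalamus had 1. The hippocampus locus with the higher mean was listed at 10.5, 14.0, 5.37 and 4.03 FPKM and the other at 0, 13.4, 9.62 and 7.85 FPKM. With the locus of the higher mean alone the difference was -1.02, and Tnr was no longer called: hippocampus replicate 4, at a scaled 4.26 FPKM, lay below hypothalamus replicates 2 and 3, at 5.0 and 4.45 FPKM. The tables give no coordinates, so the loci of a symbol could not be matched between the tissues.

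Reln, encoding the secreted glycoprotein that guides layering in development and tunes synapses in the adult, was lower in hypothalamus. It stood at 20.1, 19.1, 30.4 and 23.8 FPKM in hippocampus and 8.73, 9.56, 9.64 and 9.45 FPKM in hypothalamus. All hippocampus libraries were higher, replicate 3 most so, and the hypothalamus libraries lay close together. The difference in log2 level was -1.43 ± 0.14. As for Tnr, a further hippocampus locus was listed at 0 in replicate 1 and at 7.0, 9.44 and 6.33 FPKM in replicates 2 to 4. With the locus of the higher mean alone, at 20.1, 12.1, 21.0 and 17.4 FPKM, Reln kept its call at -1.05. Without hippocampus replicates 3 and 4 the difference was -1.26.

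**Figure D2:**
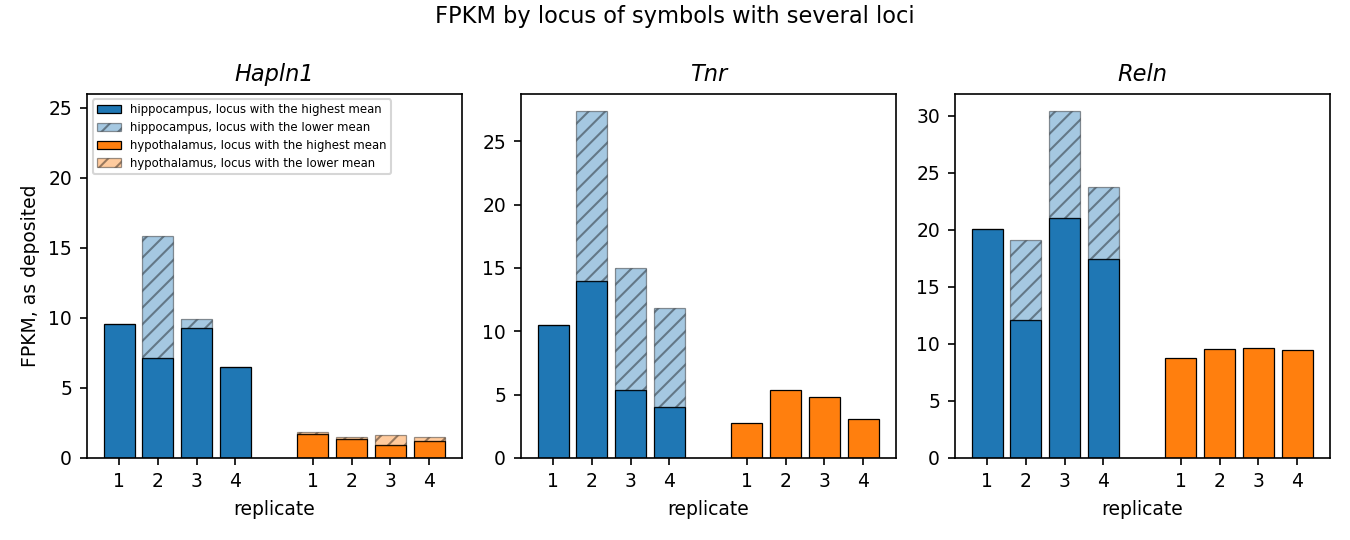
FPKM of Hapln1, Tnr and Reln in each library, with the loci of a symbol stacked: solid bars are the locus with the highest mean in that tissue and hatched bars the other locus, and the vertical axes differ in range. The hatched hippocampus loci of Tnr and Reln are at 0 in replicate 1, and the solid Tnr bars of hippocampus replicates 3 and 4 are at 5.37 and 4.03 FPKM, below the highest hypothalamus bar of 5.39 FPKM.

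Tnc, encoding tenascin-C, the tenascin of developing and reactive tissue and of some astrocytes, was the only compared member higher in hypothalamus. It stood at 1.61, 1.96, 1.72 and 1.66 FPKM in hippocampus and at 5.08, 9.08, 6.38 and 4.71 FPKM in hypothalamus. The lowest hypothalamus library lay above the highest hippocampus library, the means were 3.64-fold apart, and the difference in log2 level was 1.21 ± 0.20. Tnc had 1 locus in each table, so the question of summed loci does not arise. It was 1.28 without replicate 1 of both tissues and 1.15 without hippocampus replicates 3 and 4. Astrocyte markers (7 of 7) summed to 2053 to 2334 FPKM in hippocampus and 2327 to 2550 FPKM in hypothalamus, but Aqp4 (1.39) and Aldh1l1 (1.27) were higher, Slc1a2 (-1.57) was lower and 4 were neither. Oligodendrocyte precursor markers (5 of 7) summed to 46.8 to 57.6 and 77.0 to 131 FPKM; C1ql1 was higher (2.07) and the other 4, Pdgfra and Cspg4 among them, were neither. Meningeal and mural markers (8 of 8, with Col1a2 listed at 0) summed to overlapping ranges of 93.7 to 354 and 281 to 600.0 FPKM, with 3 of 7 compared higher and 4 neither. The part of these cells in the Tnc difference was not tested. By the same rule 26.7% of all genes compared were called.

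The balance of the tenascins turned over between the tissues. Tnr made up 86.7%, 93.3%, 89.7% and 87.7% of Tnr plus Tnc FPKM in hippocampus and 35.2%, 37.2%, 43.0% and 39.6% in hypothalamus. The means were 89.4 ± 2.92% and 38.8 ± 3.36% (SD, n = 4), so tenascin-R RNA exceeded tenascin-C RNA in all 4 hippocampus libraries and in none of the 4 hypothalamus libraries. With the locus of the higher mean alone the hippocampus shares were 86.7%, 87.7%, 75.7% and 70.8%, still above every hypothalamus library. The share is formed within a library and needs no scaling between libraries.

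**Figure D3:**
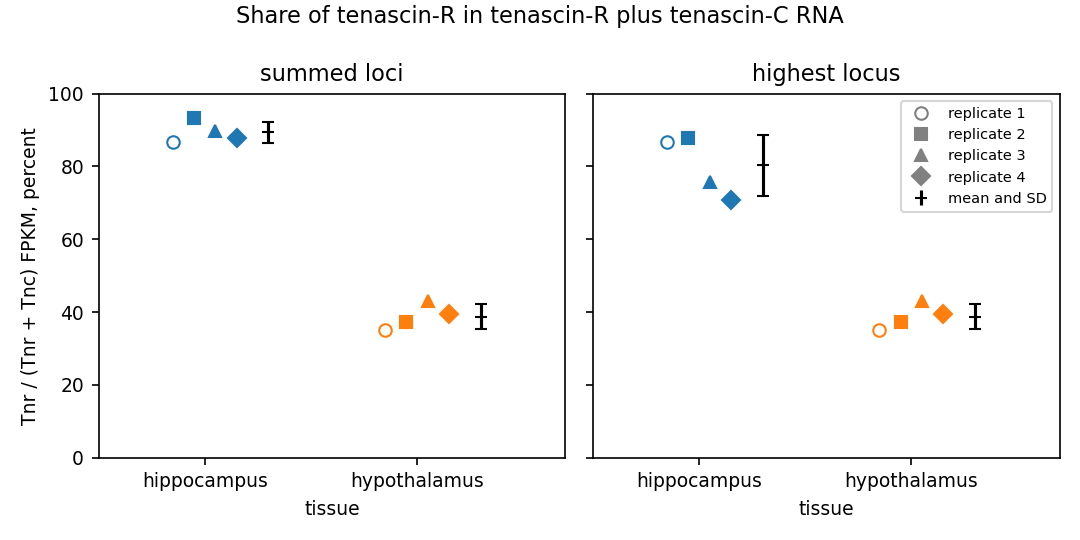
Tnr as a percentage of Tnr plus Tnc FPKM in each library, with loci summed (left) and with the locus of the highest mean (right); points are libraries and bars the mean and SD of 4. Hippocampus lies between 70.8% and 93.3% and hypothalamus between 35.2% and 43.0%.

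The windows of 250 bases before an annotated start are shown for the members with the largest difference in each direction, from RefSeq on GRCr8. Capitals mark TATAA, the core of the TATA box, and GGGCGG, the GC box, on either strand. The motifs share no bases here.
Tnc (chr5:82476132-82476381, minus strand): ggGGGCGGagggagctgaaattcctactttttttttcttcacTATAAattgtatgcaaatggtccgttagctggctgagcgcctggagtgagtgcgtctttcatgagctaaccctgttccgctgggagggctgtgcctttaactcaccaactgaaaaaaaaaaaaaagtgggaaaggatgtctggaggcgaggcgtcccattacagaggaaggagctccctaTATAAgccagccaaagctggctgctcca
Hapln1 (chr2:22366717-22366966, plus strand): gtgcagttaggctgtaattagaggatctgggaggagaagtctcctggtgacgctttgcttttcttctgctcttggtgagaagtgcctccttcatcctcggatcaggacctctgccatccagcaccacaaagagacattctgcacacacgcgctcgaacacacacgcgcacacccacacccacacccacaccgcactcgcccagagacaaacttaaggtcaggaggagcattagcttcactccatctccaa
The Tnc window holds TATAA 208 and 28 bases before the start and GGGCGG 248 bases before it, and the Hapln1 window holds neither. TATAA was in 24% and GGGCGG in 30.5% of 33469 windows of this length. Of the Tnc window, 66 bases lie inside the annotated span of the gene. The Reln window, not printed, held GGGCGG 4 times and 41 CG pairs against a median of 5 over all windows. These matches describe letters and say nothing of binding.

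The order of the levels differed in its middle ranks. In hippocampus the means fell from Bcan (77.3 FPKM) through Reln (23.3), Tnr (16.2), Hapln1 (10.4), Vcan (5.21), Tnc (1.74) and Acan (0.809). Reln and Tnr overlapped, with Reln higher in 3 of 4 libraries. Tnr and Hapln1 overlapped in range, as did Hapln1 and Vcan, although with loci summed each pair kept its order in all 4 libraries. The place of Tnr above Hapln1 rested on that sum. The Tnr locus with the higher mean was at 10.5, 14.0, 5.37 and 4.03 FPKM in replicates 1 to 4. The main Hapln1 locus, at 9.58, 7.15, 9.30 and 6.48 FPKM, lay above it in replicates 3 and 4. In hypothalamus the order was Bcan (109.8 FPKM), Reln (9.35), Tnc (6.31), Vcan (5.13), Tnr (4.01), Hapln1 (1.60) and Acan (1.16). There the ranges of Reln and Tnc, of Tnc and Vcan, and of Vcan and Tnr overlapped. Tnr lay above Hapln1, and Hapln1 above Acan, without overlap. Tnc thus stood below Vcan in all 4 hippocampus libraries without overlap and shared its range in hypothalamus.

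Spread between libraries was unequal among the members. In hippocampus the SD of log2 level, scaled within the table, was 0.58 for Tnr and 0.50 for Hapln1, beside a median of 0.26 over the 7802 genes that averaged 5 FPKM or more there. It was 0.27 for Reln, 0.24 for Vcan and 0.19 for Bcan. In hypothalamus it was 0.38 for Tnc and 0.32 for Bcan beside a median of 0.20, and 0.07 for Reln. Of the 7 members with measurable levels, 5 were highest in hippocampus replicate 2 and 5 were lowest in replicate 4. Bcan and Reln did not share the peak in replicate 2. These SDs and peaks are of summed loci. The main Hapln1 locus, at 9.58, 7.15, 9.30 and 6.48 FPKM, did not peak in replicate 2, where the other locus added 8.65 FPKM. The Tnr locus with the higher mean did peak there, at 14.0 FPKM, and the other Tnr locus was listed at 0 in replicate 1. Hypothalamus replicate 1 was the lowest library for 4 of the 7 members. The shares of all genes that were highest or lowest in each library are not given here, so these counts are not read as a trait of the members.

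**Figure D4:**
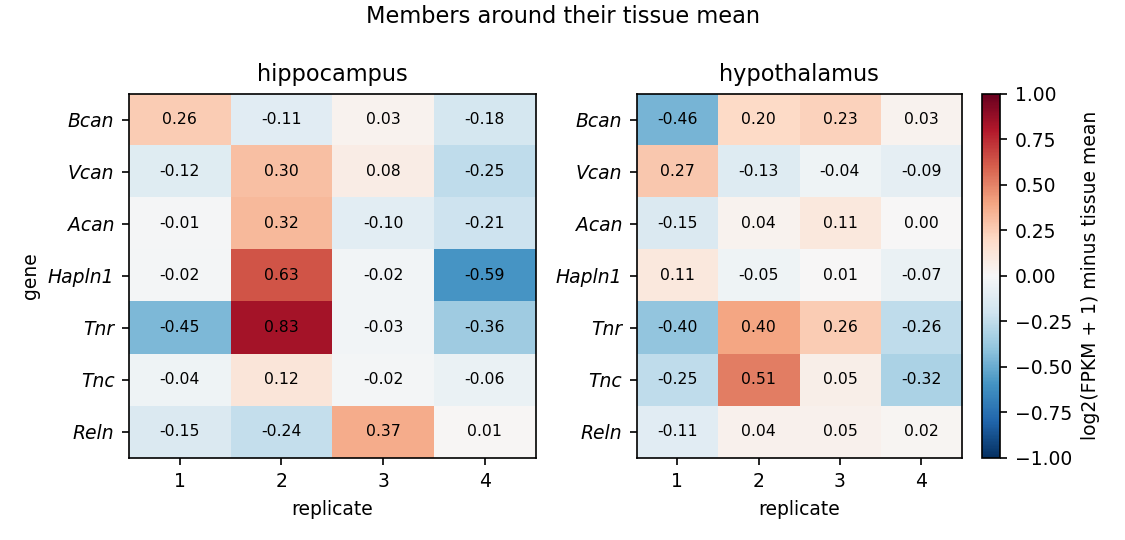
Deviation of each member's log2(FPKM + 1) from its tissue mean (colour and printed value), with replicates across and genes down, scaled within each tissue's table. The loci of a symbol are summed. Hippocampus replicate 2 is at 0.83 for Tnr and 0.63 for Hapln1 but at -0.24 for Reln, and hypothalamus replicate 1 is at -0.46 for Bcan.

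Parvalbumin and fast-spiking neuron markers (8 of 8) summed to 210 to 257 FPKM in hippocampus and 415 to 463 FPKM in hypothalamus. Of the 8, Gad2, which all GABA neurons express, was higher (1.77), the potassium channel genes Kcns3 (-2.13) and Kcnc2 (-1.20) were lower, and 5 were neither, so 3 of 8 were called beside 26.7% of all genes. With values as deposited Kcnc2 was at -0.98 and no call. Pvalb itself was at 49.0 ± 23.7 and 83.2 ± 8.87 FPKM (SD, n = 4), with a difference in log2 level of 0.66 ± 0.39. Cajal-Retzius markers (5 of 6) summed to 6.41 to 10.5 FPKM in hippocampus and 109 to 148 FPKM in hypothalamus. All 5 were higher in hypothalamus, beside 13.3% of all genes, with a median difference of 2.51, whereas Reln was lower. The list includes Lhx1 and Lhx5, which hypothalamic neurons also express, and whether it marks reelin cells there was not tested. CA2 markers (6 of 7) summed to 163 to 215 and 860 to 1068 FPKM, mostly through Pcp4; Pcp4 and Amigo2 were higher, Rgs14 and Ntf3 lower and 2 neither. Hippocampal excitatory neuron markers (5 of 5) were lower in hypothalamus, as Hapln1, Tnr and Reln were, at 923 to 1488 against 22.0 to 26.3 FPKM. Within hippocampus their sum was 1488, 923, 1094 and 1027 FPKM in replicates 1 to 4. Hapln1 and Tnr with loci summed were highest in replicate 2. The main Hapln1 locus was highest in replicate 1, at 9.58 FPKM, and the Tnr locus with the higher mean in replicate 2, at 14.0 FPKM. Oligodendrocyte markers (6 of 6) summed to 3536 to 5259 FPKM in hippocampus and 5824 to 9474 FPKM in hypothalamus, with 1 higher and 5 neither. The part of any of these cells in the differences was not tested.

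Receptors of net components had the median farthest from 0 among the members and the 7 lists of genes around nets. Of 8 compared, 5 were lower in hypothalamus, 1 was higher and 2 were neither, beside 13.4% lower and 13.3% higher over all genes. The median difference of the list was -1.55. Rtn4r, Rtn4rl1 and Rtn4rl2 belong to the Nogo receptor family, some members of which bind chondroitin sulfate. Each was lower, at -1.96, -2.50 and -4.36, and binding by each was not tested. Rtn4rl2 stood at 17.0 to 24.6 FPKM in hippocampus and 0 to 0.317 FPKM in hypothalamus, and its libraries were far apart. Nrcam, a neuronal adhesion molecule, was at 159 ± 56.5 and 29.6 ± 2.98 FPKM, a difference of -2.57 ± 0.24 in log2 level. Cntn1, encoding the contactin that binds tenascin-R, was at 169 ± 33.0 and 89.1 ± 11.3 FPKM, a difference of -1.14 ± 0.16 that was -0.90 with values as deposited and -0.74 with the highest locus alone, where it was no call. Ptprf, encoding the receptor phosphatase LAR, was the gene that was higher, at 10.5 to 12.3 against 35.7 to 41.2 FPKM, while Ptprs, its close relative and a main receptor of chondroitin sulfate, was at 69.9 to 114 and 83.1 to 87.2 FPKM.

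The reelin pathway had 4 of 8 genes lower, 1 higher and 3 neither, with a median of -0.94. Over all genes compared, 13.4% were lower and 13.3% higher. Dab1, the adaptor that carries the reelin signal, averaged 18.2 ± 4.33 FPKM in hippocampus against 9.83 ± 1.55 FPKM, a difference of -1.03 ± 0.20. Dab1 lost the call with values as deposited (-0.81), upper-quartile scaling (-0.92) and quantile normalisation (-0.97), and without hippocampus replicate 2 (-0.90) or hypothalamus replicate 2 (-0.96) or 3 (-0.998). Vldlr, a reelin receptor, was at 23.2 ± 4.33 and 14.6 ± 2.25 FPKM, and its libraries did not overlap, but -0.85 ± 0.15 is less than the size needed for a call, which it reached without replicate 1 of both tissues (-1.02). Adamts3, a protease that cleaves reelin, was at 4.12, 7.39, 4.45 and 2.36 FPKM in hippocampus against 0.380, 0.599, 0.540 and 0.425 FPKM, a difference of -1.97 ± 0.29 that was -3.11 with a pseudocount of 0.1. Pafah1b1, the lissencephaly gene that binds the dynein motor, was at 224 ± 39.4 and 78.6 ± 25.4 FPKM. Crkl, an adaptor downstream of Dab1, was the gene that was higher, at 0.636 to 1.34 against 3.21 to 5.12 FPKM.

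Among proteases of lecticans and their inhibitors, 4 of 9 genes were higher in hypothalamus, beside 13.3% of all genes, and 5 were neither. The median was 0.78. All 4 higher genes were the tissue inhibitors of metalloproteinases, none a protease. Timp4 was at 10.5, 8.34, 8.0 and 10.0 FPKM in hippocampus and 58.5, 59.2, 59.6 and 60.9 FPKM in hypothalamus, a difference of 2.35 ± 0.10. Timp1 was at 1.61, 1.23, 2.62 and 7.71 against 24.0, 31.6, 17.3 and 20.4 FPKM, and Timp2 at 139 ± 26.1 against 374 ± 44.2 FPKM, a difference of 1.21 that was 2.07 with the highest locus alone. Adamts4, a main brevican-cleaving protease, was at 6.92 to 9.28 and 8.18 to 12.0 FPKM. Mmp9, a protease of net remodelling, was just under the filter and was listed at 1.16 to 2.04 FPKM in hippocampus and 0.122 to 0.188 in hypothalamus. Col3a1, Lum and Tagln, 3 of the 7 compared meningeal and mural markers, were also higher and 4 were neither, and the part of those cells in the inhibitor values was not tested.

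Of 17 compared enzymes that build the chondroitin sulfate chains, 1 was higher and 16 were neither, with a median of -0.42; over all genes compared, 26.7% were called. Chst12, a sulfotransferase of the chondroitin chain, was at 8.52, 3.94, 7.40 and 7.49 FPKM in hippocampus and 18.0, 27.6, 27.1 and 25.7 FPKM in hypothalamus, a difference of 1.52 ± 0.26. B3gat3, which completes the linker that anchors the chain, was at 175 ± 47.6 and 103 ± 22.5 FPKM, a difference of -0.98 ± 0.28 just under the limit. B3gat3 was called lower, at -1.02 to -1.15, in 6 alternatives: with symbols of several loci dropped, and without hippocampus replicate 2 or 3 or hypothalamus replicate 2, 3 or 4. The median was 0.05 among genes of hyaluronan synthesis, binding and breakdown. Of 7 compared, 6 were neither and 1 was higher, near the 13.3% of all genes. The higher gene was Hyal2, a hyaluronidase, at 8.40 ± 1.26 and 21.2 ± 4.34 FPKM. Its difference of 1.01 ± 0.20 fell under 1 in 8 of the alternative settings, at 0.93 to 0.997. Hapln2, the link protein of oligodendrocytes at nodes of Ranvier, was at 16.4, 12.6, 14.7 and 17.3 FPKM in hippocampus and 18.8, 35.4, 53.2 and 65.5 FPKM in hypothalamus. Its scaled libraries overlapped and it was not called (1.09 ± 0.40), but it was called higher in limma, with quantile normalisation (1.19) or upper-quartile scaling (1.20), on unscaled FPKM (1.31) and without hypothalamus replicate 1 (1.44). Mbp, a myelin gene, took the same order over the hypothalamus libraries at 3182, 3751, 3991 and 5426 FPKM. It did not over the hippocampus libraries, at 1623, 2166.5, 2168 and 1604 FPKM in replicates 1 to 4, where Hapln2 was highest in replicate 4.

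Other proteoglycans and tenascins had 1 of 7 genes higher, 1 lower and 5 neither, with a median of 0.26. These shares were near the 13.3% higher and 13.4% lower of all genes compared. Gpc1, a heparan sulfate glypican, was at 50.7 ± 12.6 and 22.2 ± 1.73 FPKM, and Sdc3, a neuronal syndecan, at 32.3 ± 1.27 and 85.6 ± 18.9 FPKM, a difference of 1.12 that was 1.88 with the highest locus alone. Spock1, a testican and the highest of the list, was at 153 ± 45.5 and 111 ± 13.7 FPKM, a difference of -0.66 ± 0.24 that was -1.69 and a call with the highest locus alone. Cspg5, encoding neuroglycan C, was at 122 ± 18.7 and 72.1 ± 12.4 FPKM without overlap, at -0.99 ± 0.18, and was called lower, at -1.03 to -1.09, in 5 alternatives: with symbols of several loci dropped, and without hippocampus replicate 2 or hypothalamus replicate 2, 3 or 4. Of the net-binding ligands and partners, 2 of 4 compared were lower, beside 13.4% of all genes, and the median of the list was -0.62. Nptx1, a neuronal pentraxin of excitatory synapses, was at 195 ± 22.3 and 22.9 ± 3.54 FPKM, a difference of -3.27 ± 0.16 that was -1.82 and no call with the highest locus alone. Nrp1, the semaphorin 3A coreceptor, was at 15.4 ± 4.50 and 6.95 ± 0.953 FPKM.

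**Figure D5:**
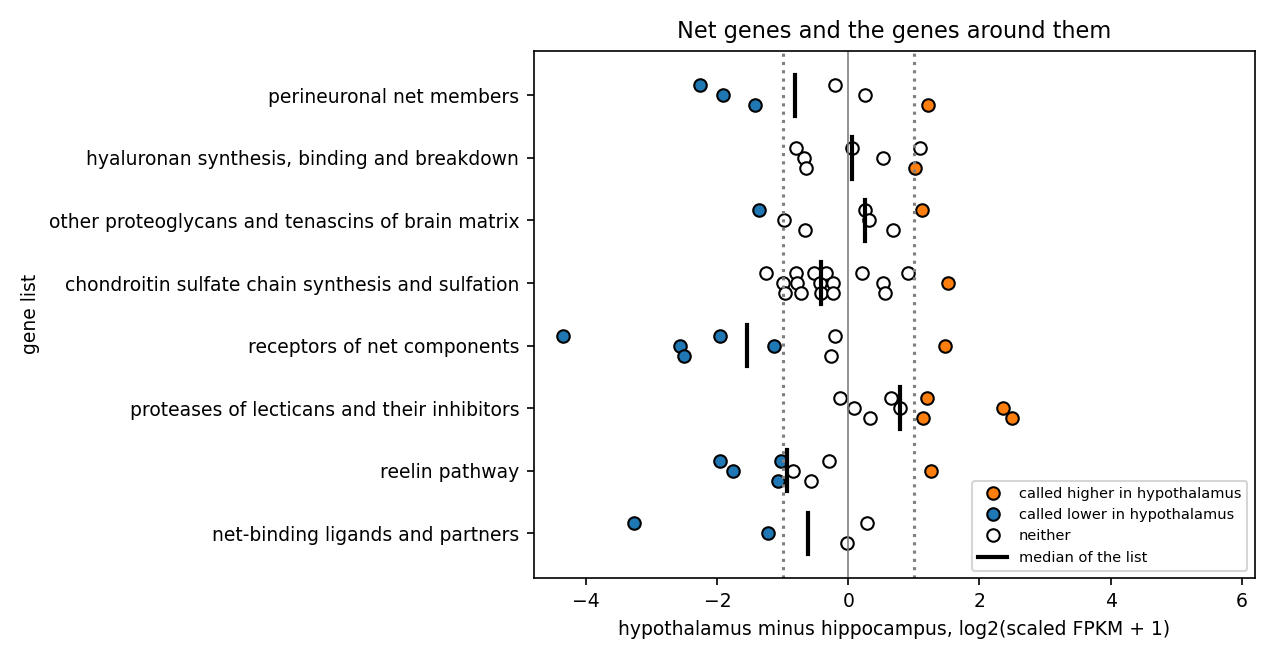
Difference between the tissues (hypothalamus minus hippocampus, log2 of scaled FPKM + 1) for each compared gene of 8 lists; filled points are called higher (orange) or lower (blue), open points neither, dotted lines mark the limit of 1 and bars the median of a list. Receptors and reelin pathway genes have medians of -1.55 and -0.94 and proteases with inhibitors 0.78, beside -0.04 over all genes compared.

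The genes whose profile over the 8 libraries was most like that of a called member were Grin2a and Zfp189 for Hapln1 (Pearson r 0.999 and 0.998), Serinc3 and Zmat3 for Tnr (0.994 and 0.991), Ippk and Plxnb3 for Reln (0.996 and 0.992), and St3gal1 and Cxcl13 for Tnc (0.990 and 0.989). The search took genes that averaged 5 FPKM or more, and the difference between the tissues sets most of such a likeness: 723 of 8064 genes exceeded an r of 0.95 with Hapln1. For Bcan, Vcan and Acan, which did not separate the tissues, the closest were Hs3st1 and Solh (0.965 each), Tgds and Ganc (0.981 and 0.980), and Aldh5a1 and Synrg (0.983 and 0.978).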

How the data were processed

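Poly-A selected RNA was read on an Illumina sequencer, per the labels' protocols. FPKM were deposited by the authors in 1 table for each tissue, with a status beside each value. Bowtie, Bowtie2, TopHat, TopHat2, Cuffdiff, Cufflinks and the build rn5 are named in the submitters' processing notes; which tool made which step, and its version, is not given in the sources used here. No locus of a member carried a status other than OK. FPKM were summed by symbol (16223 and 16183 symbols), and shared symbols were scaled by median-of-ratios factors of 0.892 to 0.950 for hippocampus and 1.07 to 1.12 for hypothalamus. A pseudocount of 1 was added before log2, which understates differences of low genes, and genes with a scaled mean of at least 1 FPKM were compared. Levels are printed as deposited and differences after scaling. Shares were formed within a library.

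The members and gene lists were chosen with earlier results of these data known, so no p-value is given for them. The genes named are the 9 members, from each other list the 2 called genes with the largest difference and the gene with the highest mean, and for each member the 2 most similar profiles over the libraries. Rtn4r, Rtn4rl1, Ptprf, Ptprs, Dab1, Vldlr, Crkl, Adamts4, Mmp9, Cspg5, Mbp, Pvalb, Kcns3, Kcnc2, Gad2, Amigo2, Rgs14, Ntf3, Aqp4, Aldh1l1, Slc1a2, C1ql1, Pdgfra, Cspg4, Col3a1, Lum, Tagln, Npy, Col1a2 and Pcp4 were named after their values had been seen. Lrp8, a reelin receptor, was not listed under that symbol for either tissue, so it could not be compared. The calculations were tested on simulated data. Promoter windows came from RefSeq (GRCr8), where all 9 members had an entry. Python 3.11.15 and limma 3.58.1 in R 4.3.3 were used. Alternatives were other scalings, another pseudocount, other filters, other treatments of loci, leaving out libraries, and limma with and without a block.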

Additional observations from a re-analysis of the deposited data

Results flagged for a closer look

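In 8 of 59 groups of 4 libraries, a single library lay far from the other 3 relative to the range of the group. Chance gives such a gap in about 1 of 20 groups. The groups are not independent, since they share libraries and the lectican shares are parts of 1 sum, so 8 is not read as an excess. Among the members, aggrecan made up 1.57% of the lectican FPKM in hippocampus replicate 2, with the other 3 libraries between 0.763% and 0.799%. In hypothalamus replicate 1 brevican made up 91.5% and versican 7.41% of the lectican FPKM, against 95.0% or more and 4.04% or less in the other libraries. Neurocan made up 0.00660% in hypothalamus replicate 2 and was listed at 0 in the others, so its flag follows from the listed zeros. On the scale of log2(scaled FPKM + 1), Nrcam was high in hippocampus replicate 2 at 8.07. On that scale Hyal2 was low in hypothalamus replicate 1 at 3.84, as were B3gat3 at 5.99 and Timp2 at 8.11.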

How the results depend on the processing

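Hapln1, Reln and Tnc kept direction and call in every alternative that could compare them, with differences of -2.80 to -2.06, -1.52 to -1.05 and 1.03 to 1.53. Tnr kept both in 19 of 20 alternatives, over -2.17 to -1.02, and lost the call with the highest locus alone. With that locus its share of the tenascins in hippocampus was 80.3% in place of 89.4%. The alternatives are not independent checks, since other filters and limma left the Tnr difference at -1.92. Only the highest locus alone altered the sum over loci on which the Tnr call rested. When symbols with several loci were dropped, 0 members were lower, because Hapln1, Tnr and Reln were left out, and at a mean of 5 FPKM 0 were higher, because Tnc was. Values as deposited placed the median gene at 0.18 in place of -0.04 and 65.3% of calls higher in place of 49.8%; the same 4 members were called. Whether libraries of equal replicate number share an animal is not known. Their r of deviations was -0.09 to 0.15, within the -0.21 to 0.21 of unequal numbers. With 4 libraries in each tissue such values cannot decide it. As without a block, limma with the replicate number as a block called 1 member higher and 3 lower. Leaving out a library in turn, Tnr made up 88.1% to 90.3% of the tenascins in hippocampus and 37.4% to 40.0% in hypothalamus.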
